A study of Mus musculus with 14 samples.

Results

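The Fc receptor genes described here are the receptors for immunoglobulin G, the signalling chain they share, the neonatal receptor and the kinase Syk. The members were taken by symbol from the deposited expression table, and all 7 listed symbols (Fcgr1, Fcgr2b, Fcgr3, Fcgr4, Fcer1g, Fcgrt and Syk) were found among its 46904 genes. All 7 passed the filter on low values, and no member was at 0 reads in any library. RNA was sequenced from brain hemispheres of mice 48 h after a transient occlusion of the middle cerebral artery (MCAO), the standard filament model of ischemic stroke, to ask how the absence of cortistatin, a neuropeptide, alters the response to ischemia. The groups comprised 3 contralateral (CL) and 3 ischemic (MCAO) hemispheres of wild-type mice (Cort+/+) and 3 CL and 5 MCAO hemispheres of mice that lack the cortistatin gene (Cort-/-). The mice were males of 12 weeks on a C57BL/6J background with an occlusion of 20 min, the Cort deletion is constitutive, and it was present in every tissue before the stroke. The protocol names 5 MCAO replicates, of which Cort+/+ replicates 2, 3 and 4 are analysed here, and the methods state that replicates were selected by how well they clustered with their group, a choice that can narrow the spread between replicates. The CL hemispheres came from the uninjured side of operated brains, so no hemisphere of an unoperated mouse enters these comparisons, and the labels do not say which CL and MCAO libraries came from the same animal.

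Fc receptors let cells sense antibody. In the mouse, Fcgr1, Fcgr3 and Fcgr4 encode activating IgG receptors that signal through the common gamma chain encoded by Fcer1g, whose ITAM motif recruits and activates the tyrosine kinase Syk, and Fcgr2b encodes the single inhibitory IgG receptor, which carries an ITIM motif and recruits the phosphatase encoded by Inpp5d. In the brain the IgG receptors are known mainly from microglia and other macrophages, while Fcgrt encodes the neonatal receptor FcRn, a relative of MHC class I that pairs with beta-2-microglobulin and protects IgG and albumin from degradation, also in endothelium.

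In GRCm39 and GENCODE annotation, 4 of the 7 members lie on chromosome 1. Fcgr2b (chr1:170786186-170804177, minus strand), Fcgr4 (chr1:170846466-170857330, plus strand) and Fcgr3 (chr1:170878738-170893549, minus strand) follow one another there, with Fcer1g (chr1:171057141-171062219, minus strand) beyond them. Fcgr1 lies on chr3:96190225-96201338 (minus strand), Fcgrt on chr7:44742412-44756819 (minus strand) and Syk on chr13:52736696-52802828 (plus strand). Fcgr2b and Fcgr3 are close in sequence. Of the 50-base windows in the annotated coding transcripts of Fcgr2b, 4.19% also occur in those of Fcgr3. Of the Fcgr3 windows of that length, 5.28% occur in Fcgr2b. At 100 bases, the length of each read of a pair, these shares were 1.02% and 1.30%. A read that lies wholly in a shared stretch cannot be assigned by its own sequence, so the division between both genes is uncertain for such reads. No window of either length was shared between the other members.

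Promoter windows of 300 bases (250 before and 50 after an annotated start, RefSeq, build GRCm38.p6, which is not the build of the coordinates above) were found for all 7 members, 9 windows in all. Those of the 3 activating receptors are shown, and that of Fcgrt because it moved least. Fcgr2b and Fcer1g moved closely with the activating receptors too, but their windows are not printed. Sequences are printed 5' to 3' on the strand of the gene. Capitals mark matches to GAGGAA (the core that ETS factors such as PU.1 can bind, TTCCTC on the opposite strand), TTCNNNGAA (the STAT core known as GAS, which reads alike on both strands) or the interferon element ISRE (a pair of GAAA runs with any 2 bases between them), each searched on both strands.

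Fcgr1 (chr3:96293920-96294219, minus strand): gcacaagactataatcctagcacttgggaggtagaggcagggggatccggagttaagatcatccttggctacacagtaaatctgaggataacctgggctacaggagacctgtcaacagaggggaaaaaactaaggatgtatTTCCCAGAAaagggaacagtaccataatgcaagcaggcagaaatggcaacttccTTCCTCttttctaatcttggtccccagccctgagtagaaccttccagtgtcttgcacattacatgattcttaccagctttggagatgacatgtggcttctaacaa

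Fcgr3 (chr1:171059354-171059653, minus strand): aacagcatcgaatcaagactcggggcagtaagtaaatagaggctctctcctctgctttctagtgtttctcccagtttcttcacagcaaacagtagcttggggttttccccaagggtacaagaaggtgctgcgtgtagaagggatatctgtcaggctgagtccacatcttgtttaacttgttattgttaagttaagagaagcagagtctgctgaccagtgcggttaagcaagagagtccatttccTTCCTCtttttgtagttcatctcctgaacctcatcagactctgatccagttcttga

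Fcgr4 (chr1:171018676-171018975, plus strand): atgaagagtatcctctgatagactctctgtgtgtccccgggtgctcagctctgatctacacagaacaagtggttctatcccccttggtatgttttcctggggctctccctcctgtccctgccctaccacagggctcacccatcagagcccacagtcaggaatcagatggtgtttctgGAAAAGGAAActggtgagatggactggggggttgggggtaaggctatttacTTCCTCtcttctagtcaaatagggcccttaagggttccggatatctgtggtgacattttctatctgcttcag

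Fcgrt (chr7:45103773-45104072, minus strand): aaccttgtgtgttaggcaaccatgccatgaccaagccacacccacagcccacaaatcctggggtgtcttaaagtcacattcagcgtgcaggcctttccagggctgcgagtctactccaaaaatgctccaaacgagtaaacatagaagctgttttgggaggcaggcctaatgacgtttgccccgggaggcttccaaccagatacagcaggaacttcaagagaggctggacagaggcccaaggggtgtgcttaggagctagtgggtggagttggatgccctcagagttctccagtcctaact

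The letters GAGGAA occurred in 5 of the 9 windows, those of Fcgr1, Fcgr4, one of Syk and both of Fcgr3, and in 28.3% of all 32851 promoter windows. Both Fcgr3 windows overlap and hold the same site, which is thus counted in each. TTCNNNGAA was found in the Fcgr1 window alone (TTCCCAGAA at position -109 from the start site; 8.30% of all windows), and the ISRE in the Fcgr4 window alone (GAAAAGGAAA at position -73; 3.44% of all windows). No marked match overlapped another within a window. The windows of Fcgr2b, Fcer1g and Fcgrt held none of these letters. These are matches of letters in a window and no measurement of binding.

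The 14 libraries held 26000743 to 43050388 recovered reads each. Expression is given as RPKM, reads scaled by gene length and by library size, as the authors computed it, so that levels of different genes can be compared per length. Cort stood at 2.61, 5.68 and 5.50 RPKM in Cort+/+ CL and at 4.44, 3.37 and 3.87 RPKM in Cort+/+ MCAO hemispheres, whereas no Cort-/- library exceeded 0.136 RPKM, so every library matched its genotype label. Among the MCAO libraries, Cort+/+ replicate 4 held the lowest level of 6 of the 7 members, and Cort-/- replicate 1 the highest level of those same 6 genes over all 14 libraries; Fcgrt was the exception in both. Among the CL libraries, Cort+/+ replicate 1 was highest for Fcgr1, Fcgr2b, Fcgr3, Fcgr4 and Fcer1g. Differences are limma estimates on the scale of log2(RPKM + 0.1), with p-values adjusted over all 46102 genes tested and a call at an adjusted p under 0.05. The labels name the libraries replicates and the methods call them biological. In bulk tissue, fewer cells of a type and less RNA per cell cannot be told apart.

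The 3 activating receptors stood higher in MCAO than in CL hemispheres in both genotypes, by about 2 to 6 times on this scale in Cort-/- mice, and Fcgr1 and Fcgr4 passed the test there. Fcgr1, the high-affinity receptor for IgG, stood at 1.36, 1.15 and 1.21 RPKM in Cort+/+ CL replicates 1 to 3 and at 3.20, 6.03 and 1.72 RPKM in Cort+/+ MCAO replicates 2 to 4. In Cort-/- mice it stood at 1.05, 1.14 and 0.859 RPKM in CL replicates 1 to 3 and at 6.58, 3.44, 2.11, 5.57 and 4.99 RPKM in MCAO replicates 1 to 5. Every MCAO library lay above every CL library of its genotype, the lowest being Cort+/+ replicate 4. The log2 difference was 1.31 ± 0.41 (SE) in Cort+/+ mice (adjusted p = 0.361) and 1.96 ± 0.37 (SE) in Cort-/- mice (adjusted p = 0.0223), a rise of 3.89-fold (95% interval 2.23 to 6.78) in the latter.

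Fcgr3, a low-affinity activating receptor, was by far the most abundant of the IgG receptors. Its level was 14.6, 8.72 and 8.06 RPKM in the Cort+/+ CL libraries and 16.7, 25.6 and 12.3 RPKM in the Cort+/+ MCAO libraries. The Cort-/- CL libraries held 9.32, 10.7 and 9.61 RPKM, and the Cort-/- MCAO libraries 30.1, 18.5, 14.6, 27.1 and 21.6 RPKM. In Cort+/+ mice the hemispheres overlapped, since CL replicate 1 lay above MCAO replicate 4, whereas in Cort-/- mice they did not. The log2 difference was 0.78 ± 0.30 (SE) in Cort+/+ (adjusted p = 0.516) and 1.13 ± 0.27 (SE) in Cort-/- mice (adjusted p = 0.0544), which just missed the threshold.

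Fcgr4, an activating receptor that binds some IgG subclasses with intermediate affinity, was the scarcest member in CL hemispheres and had the widest difference. Cort+/+ CL hemispheres held 0.505, 0.138 and 0.213 RPKM, from 23, 6 and 10 reads, and Cort+/+ MCAO hemispheres 1.06, 3.18 and 0.592 RPKM, from 48, 163 and 23 reads. Cort-/- CL hemispheres held 0.162, 0.455 and 0.0984 RPKM, from 7, 19 and 4 reads, and Cort-/- MCAO hemispheres 3.55, 1.12, 0.783, 3.13 and 2.08 RPKM, from 194, 61, 26, 164 and 100 reads. The groups did not overlap in either genotype, although the low read numbers in CL limit the precision of the ratio. The log2 difference was 1.96 ± 0.65 (SE) in Cort+/+ (adjusted p = 0.394) and 2.66 ± 0.58 (SE) in Cort-/- mice (adjusted p = 0.0385), the latter 6.33-fold (95% interval 2.66 to 15.1). With a pseudocount of 1 RPKM this difference became 1.26 (adjusted p = 0.0988), and with limma voom on the recovered reads 3.21 (adjusted p = 0.0506); over 24 alternatives the adjusted p ran from 0.0168 to 0.206.

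**Figure D1:**
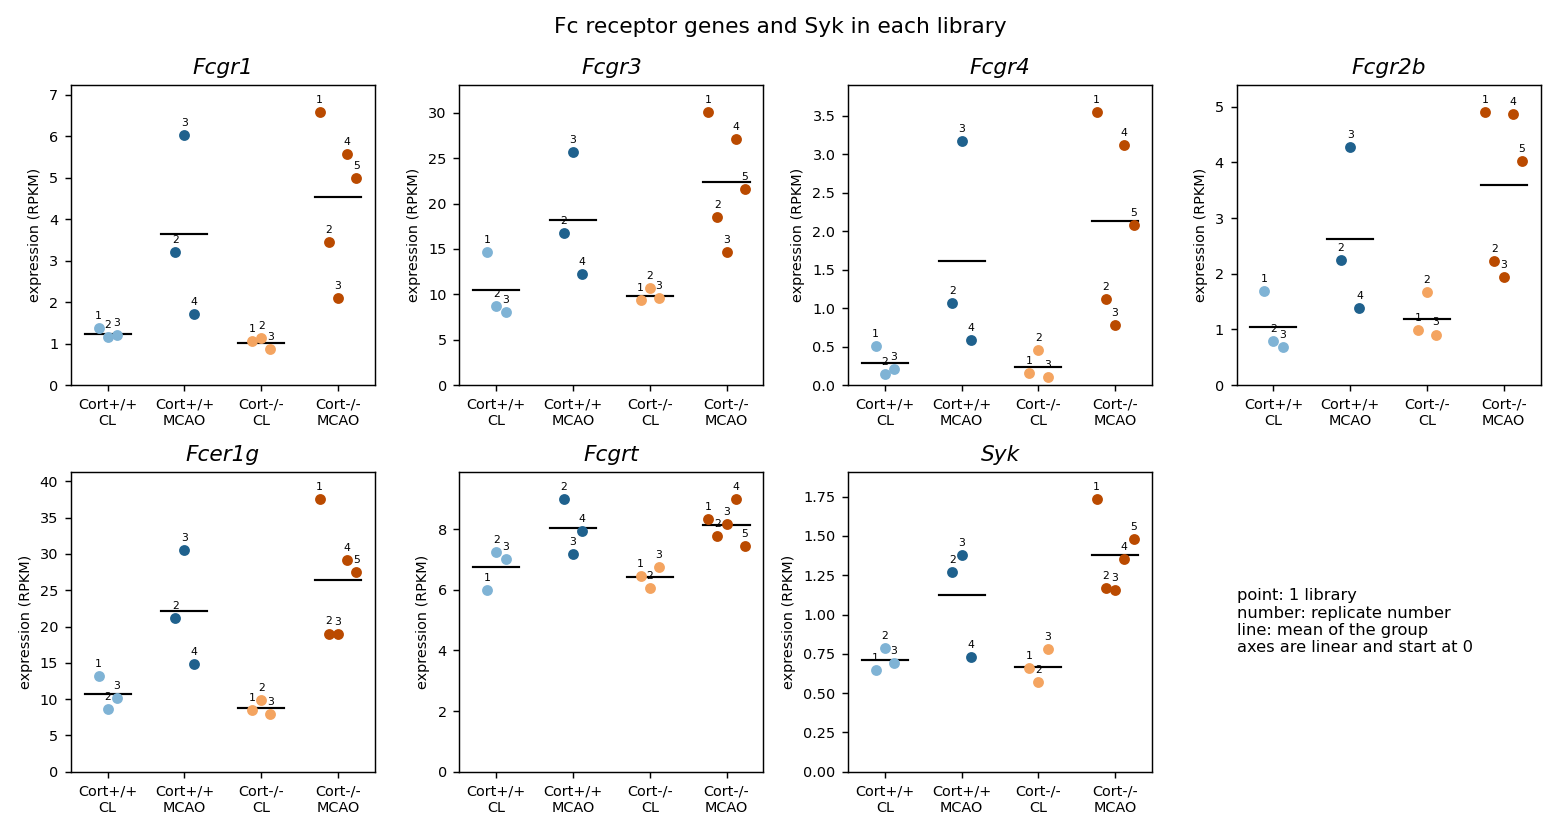
Expression in RPKM (linear axes from 0) of the 7 genes in each of the 14 libraries, with replicate numbers beside the points and a line at the mean of each group. In Cort-/- mice every MCAO point lies above every CL point for all 7 genes, and Fcgrt, between 5.99 and 8.99 RPKM throughout, moves least.

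The common gamma chain followed its receptors. Fcer1g stood at 13.2, 8.66 and 10.1 RPKM in Cort+/+ CL and at 21.1, 30.6 and 14.8 RPKM in Cort+/+ MCAO hemispheres. In Cort-/- mice its level was 8.57, 9.85 and 7.97 RPKM in CL and 37.6, 19.0, 19.0, 29.1 and 27.5 RPKM in MCAO hemispheres. Neither genotype had overlapping hemispheres, and the lowest MCAO library was again Cort+/+ replicate 4. Fcer1g rose by 1.53 ± 0.25 (log2, SE) in Cort-/- mice (adjusted p = 0.0133), the smallest p of the 7 members there, and its log2 difference was 1.01 ± 0.28 (SE) in Cort+/+ mice (adjusted p = 0.294).

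The inhibitory receptor moved in the same direction as the activating ones but did not pass the test in either genotype taken alone. Fcgr2b stood at 1.69, 0.789 and 0.675 RPKM in Cort+/+ CL and at 2.24, 4.27 and 1.38 RPKM in Cort+/+ MCAO hemispheres. Levels in Cort-/- mice were 0.990, 1.67 and 0.908 RPKM in CL and 4.90, 2.23, 1.94, 4.88 and 4.03 RPKM in MCAO hemispheres. The Cort+/+ groups overlapped, with CL replicate 1 above MCAO replicate 4, and the Cort-/- groups did not. The log2 difference was 1.21 ± 0.46 (SE) in Cort+/+ (adjusted p = 0.510) and 1.47 ± 0.41 (SE) in Cort-/- mice (adjusted p = 0.103).

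Syk was low in CL hemispheres and rose in Cort-/- MCAO hemispheres. Its level was 0.649, 0.787 and 0.694 RPKM in Cort+/+ CL and 1.27, 1.38 and 0.729 RPKM in Cort+/+ MCAO hemispheres. Cort-/- CL hemispheres held 0.659, 0.569 and 0.779 RPKM, and Cort-/- MCAO hemispheres 1.74, 1.17, 1.16, 1.36 and 1.48 RPKM. Cort+/+ MCAO replicate 4 lay within the range of the CL libraries of its genotype, and the other MCAO libraries lay above all CL libraries. The log2 difference was 0.94 ± 0.19 (SE) in Cort-/- (adjusted p = 0.0296) and 0.56 ± 0.21 (SE) in Cort+/+ mice (adjusted p = 0.516).

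The neonatal receptor behaved apart from the other members, with a high and narrow level in every library. Fcgrt stood at 5.99, 7.25 and 7.02 RPKM in Cort+/+ CL and at 8.99, 7.16 and 7.92 RPKM in Cort+/+ MCAO hemispheres. The corresponding levels in Cort-/- mice were 6.46, 6.04 and 6.74 RPKM and 8.34, 7.76, 8.15, 8.99 and 7.44 RPKM. Cort-/- hemispheres did not overlap, and in Cort+/+ mice MCAO replicate 3 lay below CL replicate 2. The log2 difference was 0.24 ± 0.10 (SE) in Cort+/+ (adjusted p = 0.534) and 0.34 ± 0.09 (SE) in Cort-/- mice (adjusted p = 0.0735), the latter 1.26-fold (95% interval 1.11 to 1.44).

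Read over the members, 4 of 7 rose in Cort-/- MCAO against CL hemispheres (Fcgr1, Fcgr4, Fcer1g and Syk), where 1.34% of all genes tested were called higher, and all 7 had hemispheres that did not overlap, which 4.85% of all genes had in that direction. All 7 had an estimate above 0 (50.6% of all genes) and an unadjusted p under 0.05 (12.7%). The median log2 difference of the 7 was 1.47 and that of all genes tested 0. In Cort+/+ mice limma called 0 of 7 (0.00868% of all genes were called higher), limma voom on the recovered reads also called 0, and all 7 had an unadjusted p under 0.05, as 7.87% of all genes did in either direction. Hemispheres were apart for 3 of 7 there (Fcgr1, Fcgr4 and Fcer1g), against 5.73% of all genes, all 7 had an estimate above 0 (50.3% of all genes), and the median of the 7 was 1.01. Taking the mean of both genotypes' differences, which uses all 14 libraries, all 7 were called higher (2.52% of all genes were), with log2 differences of 1.64 for Fcgr1, 0.95 for Fcgr3, 2.31 for Fcgr4, 1.27 for Fcer1g, 1.34 for Fcgr2b, 0.75 for Syk and 0.29 for Fcgrt, and adjusted p from 0.00352 for Fcer1g to 0.0309 for Fcgr2b. In that comparison 1163 of 1579 calls over all genes were higher, and 1279 of 1485 after rescaling to TPM. The 4 calls in Cort-/- mice were not stable when 1 library was left out, and calls over all genes (1.72% in either direction) fell too. Without CL replicate 1 or 3 of that genotype 0 of 7 were called (0.291% and 0.326% of all genes). Without CL replicate 2 or MCAO replicate 1, 4 or 5 the call of Fcer1g alone was left (0.585 to 0.770% of all genes). The log2 difference of Fcer1g ran from 1.39 to 1.64 without single libraries. In a model of the Cort-/- libraries alone 0 of 7 were called (0.187% of all genes), with an adjusted p of 0.0542 for Fcer1g and 0.0714 for Fcgr1. The 7 calls over both genotypes fell to 4 without Cort-/- CL replicate 1.

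**Figure D2:**
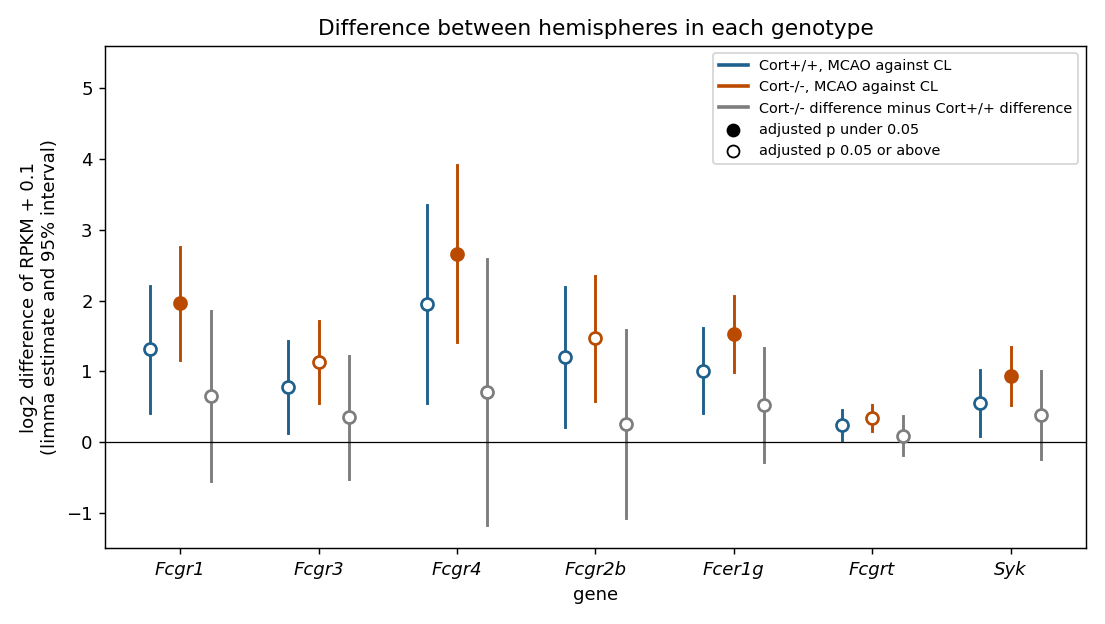
Log2 difference of RPKM + 0.1 between MCAO and CL hemispheres for each gene in each genotype, and the difference between those differences, as limma estimates with 95% intervals; filled points have an adjusted p under 0.05. All 14 within-genotype estimates lie above 0, the filled ones are Fcgr1, Fcgr4, Fcer1g and Syk in Cort-/- mice, and every interval of the grey points includes 0.

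Next, the genotypes were compared within each hemisphere, to ask whether the loss of cortistatin shifts Fc receptor expression. In MCAO hemispheres all 7 members had a higher estimate in Cort-/- than in Cort+/+ mice (49.4% of all genes did), with a median log2 difference of 0.32, but 0 of 7 passed the test (0.0174% of all genes did). Of the 7, 0 had an unadjusted p under 0.05 (3.82% of all genes), limma voom called 0, and the libraries of both genotypes overlapped for every member, where 0.861% of all genes were apart and higher and 1.56% apart and lower in Cort-/- mice. The largest estimates were 0.49 for Fcgr4 (95% interval -0.76 to 1.74), 0.48 for Fcgr2b (-0.41 to 1.36) and 0.38 for Fcgr1 (-0.43 to 1.18), and the narrowest interval was that of Fcgrt, 0.02 (-0.16 to 0.21). Without Cort+/+ MCAO replicate 4 the estimates of Fcgr1 and Fcgr4 turned to -0.06 and -0.01. These intervals leave room for more than a 2-fold difference in Fcgr1, Fcgr2b and Fcgr4 and so do not show that the genotypes were alike.

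In CL hemispheres 6 of 7 estimates lay below 0, with Fcgr2b above it (0.22, 95% interval -0.77 to 1.21), where 49.8% of all genes lay above 0. The limma test called 0 of 7 (0.0152% of all genes), 0 had an unadjusted p under 0.05 (3.91% of all genes), and limma voom called 0. Fcgr1 was the only member whose CL libraries did not overlap between genotypes, from 0.859 to 1.14 RPKM in Cort-/- and from 1.15 to 1.36 RPKM in Cort+/+ mice, as 2.35% of all genes did in that direction. Its log2 difference was -0.27 (95% interval -1.17 to 0.63). Fcgr3, at -0.03, lay above 0 (0.03) after rescaling to TPM.

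The difference between the hemispheres was larger in Cort-/- than in Cort+/+ mice in the estimate of every member, by a median of 0.38 on the log2 scale, and the comparisons of both genotypes with their own CL libraries share no library. However, the test of this difference called 0 of 7 (0.00217% of all genes), with 0 at an unadjusted p under 0.05 (3.31% of all genes) and 0 called by limma voom. The excess was 0.65 (95% interval -0.56 to 1.85) for Fcgr1, 0.52 (-0.29 to 1.33) for Fcer1g, 0.38 (-0.24 to 1.00) for Syk, 0.35 (-0.52 to 1.22) for Fcgr3 and 0.09 (-0.19 to 0.37) for Fcgrt. Fcgr4 and Fcgr2b had the widest intervals, 0.71 (-1.17 to 2.58) and 0.26 (-1.07 to 1.59). Of all genes tested, 48.2% had an excess above 0. Most members varied together over the libraries, so the 7 signs are not independent results.

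The order of the levels was compared next, per length. In CL hemispheres Fcer1g and Fcgr3 stood first, with means of 10.7 and 10.5 RPKM in Cort+/+ and 8.80 and 9.87 RPKM in Cort-/- mice, and their libraries overlapped. Fcgrt came next in every group and stood apart from both neighbours in the order. Below it, Fcgr1 and Fcgr2b overlapped in all 4 groups, and Fcgr4 was lowest in CL, with means of 0.285 ± 0.194 (SD, n = 3) and 0.238 ± 0.190 RPKM (SD, n = 3) in Cort+/+ and Cort-/- mice. In MCAO hemispheres Fcgr4 stood above Syk, at 1.61 ± 1.38 (SD, n = 3) and 2.13 ± 1.21 RPKM (SD, n = 5), though these libraries overlapped with those of Syk. The summed members reached 27.5 to 38.0 RPKM in Cort+/+ CL, 39.4 to 78.2 RPKM in Cort+/+ MCAO, 27.0 to 30.4 RPKM in Cort-/- CL and 47.7 to 92.8 RPKM in Cort-/- MCAO libraries.

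The make-up of IgG receptor expression shifted between hemispheres in both genotypes. Fcgr3 made up 80.2 ± 0.747% (SD, n = 3) of the summed RPKM of Fcgr1, Fcgr2b, Fcgr3 and Fcgr4 in Cort+/+ CL and 71.5 ± 5.66% (SD, n = 3) in Cort+/+ MCAO hemispheres, and 80.4 ± 3.59% (SD, n = 3) and 69.6 ± 4.29% (SD, n = 5) in those of Cort-/- mice. The share of Fcgr4 was 2.05 ± 0.751% (SD, n = 3) and 5.47 ± 2.34% (SD, n = 3) in Cort+/+, and 1.84 ± 1.26% (SD, n = 3) and 6.07 ± 1.79% (SD, n = 5) in Cort-/- mice. Both shares were apart between the hemispheres of each genotype, with the highest Fcgr4 share of any CL library at 3.27% and the lowest of any MCAO library at 3.71%. The ratio of Fcgr4 to Fcgr2b ran from 0.108 to 0.316 over the CL and from 0.405 to 0.745 over the MCAO libraries.

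The balance of activating to inhibitory receptors, by contrast, did not separate the hemispheres. Summed Fcgr1, Fcgr3 and Fcgr4 stood at 12.2 ± 2.18 times Fcgr2b (SD, n = 3) in Cort+/+ CL, 9.36 ± 1.19 times (SD, n = 3) in Cort+/+ MCAO, 9.88 ± 2.24 times (SD, n = 3) in Cort-/- CL and 8.41 ± 1.33 times (SD, n = 5) in Cort-/- MCAO hemispheres, and CL and MCAO libraries overlapped in both genotypes. Fcer1g kept near its receptors, at 0.754 to 1.08 times their summed RPKM over all 14 libraries. These shares and ratios are descriptions without a test, and the CL values of Fcgr4 rest on 4 to 23 reads.

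**Figure D3:**
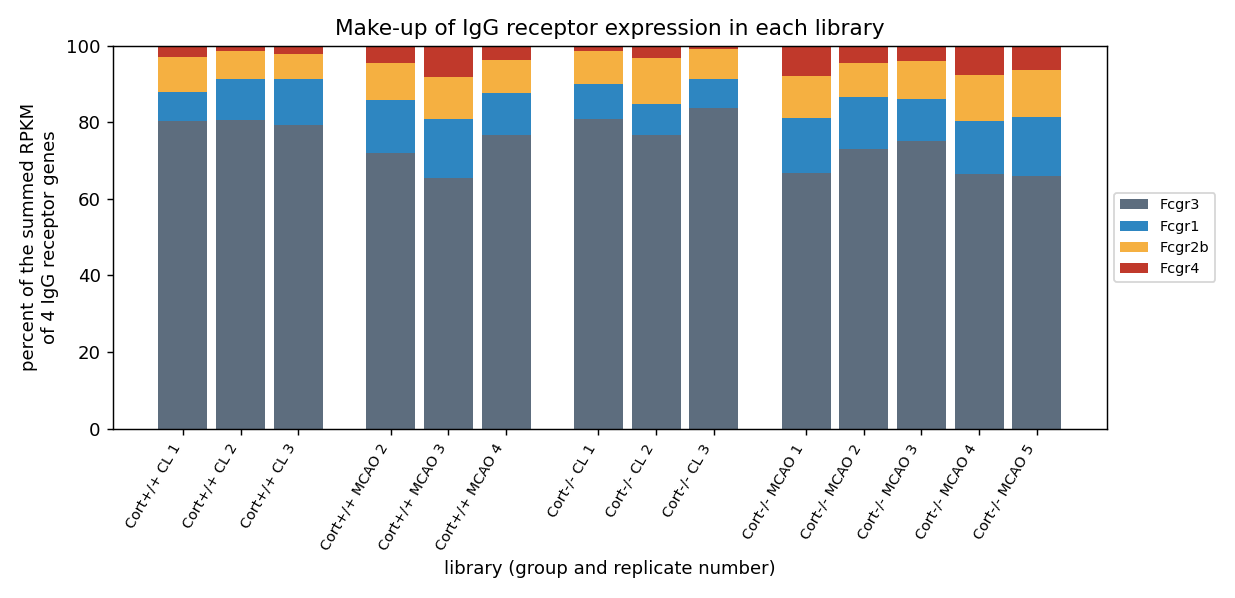
Share of each IgG receptor gene in the summed RPKM of the 4 (percent, from 0 to 100) in each library, grouped by genotype and hemisphere. The Fcgr3 share lies between 76.6 and 83.7% in CL and between 65.6 and 76.8% in MCAO libraries, and the Fcgr4 share at the top is wider in every MCAO library.

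The wider pathway was described from lists of genes for signalling below and around the receptors, of which 86 were tested. In Cort-/- MCAO against CL hemispheres 20 of the 86 rose and 0 fell, where 1.34% of all genes were called higher and 0.382% lower. In Cort+/+ mice limma called 0 of the 86, with an unadjusted p under 0.05 for 33 (7.87% of all genes). Of the kinases, adaptors and effectors 9 of 27 rose, Plcg2, Rac2 and Vav1 among them, with a median log2 difference of 0.50. Lyn, a Src family kinase that phosphorylates ITAM and ITIM motifs, rose by 1.13 ± 0.24 (log2, SE; adjusted p = 0.0325) from 1.94 to 2.48 RPKM in CL to 3.20 to 6.63 RPKM in MCAO libraries. Lat2, an adaptor of ITAM signalling, had the largest difference of the list, 1.69 (adjusted p = 0.0169), beside 1.56 for Pik3ap1 and 1.50 for Btk. The other 18 were not called, with estimates from -0.15 for Pik3r1, a regulatory subunit of PI3-kinase, to 1.15 for Lcp2, the adaptor SLP-76 (adjusted p = 0.0568). Without Cort-/- CL replicate 3 the count of 20 fell to 3, without CL replicate 1 to 4, without MCAO replicates 1, 4 and 5 to 9, 10 and 13, and in a model of the Cort-/- libraries alone to 3. Calls over all genes fell in these fits as well.

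Of a list of genes that restrain these or other immune receptors, 6 of 16 rose as well, with a median of 0.61. Inpp5d, which encodes the phosphatase SHIP1 that acts below Fcgr2b, rose by 0.90 ± 0.18 (log2, SE; adjusted p = 0.0295), and Ptpn6, which encodes SHP-1, by 1.42 ± 0.26 (log2, SE; adjusted p = 0.0216). The inhibitory receptors Lilrb4a, Lilrb4b and Cd72 had the largest differences, 3.24, 3.13 and 3.07, and Cd22 rose by 1.41, each with an adjusted p from 0.00904 to 0.0356. In Cort-/- CL replicates 1 to 3, Lilrb4a had 14, 54 and 13 reads and Lilrb4b 1, 20 and 3. Cd72 had 15, 26 and 12 reads and Cd22 9, 4 and 4. These low numbers limit the precision of the differences.

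Among other receptors that use an ITAM chain 3 of 17 rose, with a median of 0.47. These were Clec7a (Dectin-1, a receptor for beta-glucan) with 2.46 (adjusted p = 0.00625), Trem2 with 1.17 (adjusted p = 0.0147) and Tyrobp, the DAP12 chain that pairs with Trem2, with 1.27 (adjusted p = 0.0228). Tyrobp was more abundant than Fcer1g in every group, with means of 18.8 and 44.6 RPKM in Cort+/+ CL and MCAO and 18.9 and 47.0 RPKM in Cort-/- CL and MCAO hemispheres.

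Of the other receptors for immunoglobulin or their relatives, 1 of 11 rose. This was Fcrl2, an Fc receptor-like gene known from microglia, which rose by 2.02 ± 0.27 (log2, SE; adjusted p = 0.00751) from a mean of 7.55 ± 1.51 RPKM (SD, n = 3) to 31.3 ± 8.10 RPKM (SD, n = 5) in Cort-/- mice. In Cort+/+ mice its difference was 1.84 (adjusted p = 0.0855), from 7.09 ± 1.41 RPKM (SD, n = 3) to 26.8 ± 10.01 RPKM (SD, n = 3). Its mean level was above those of Fcgr1, Fcgr2b and Fcgr4 in all 4 groups, and above that of every member in the MCAO hemispheres of both genotypes, where its libraries overlapped with those of Fcgr3 and Fcer1g. The median of the list was 0.15, and Ms4a2, Fcer2a, Fcamr, Pigr, Fcrl6 and Fcrla were at 0 reads in 2 to 9 libraries.

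B2m, which encodes the light chain of FcRn and of MHC class I, rose by 0.98 ± 0.20 (log2, SE; adjusted p = 0.0295) in Cort-/- mice, from 51.7 to 58.4 RPKM in CL to 77.8 to 138 RPKM in MCAO libraries, beside the 0.34 of Fcgrt. Of the heavy chains of IgG, Ighg1, Ighg2b and Ighg3 had at most 4 reads in any library, whereas Ighg2c had 64 to 125 reads in each, at 1.74 to 2.90 RPKM, and overlapped between the hemispheres of both genotypes (log2 difference of -0.06 in Cort+/+ and -0.0017 in Cort-/- mice). In all, 0 of 12 immunoglobulin genes were called by limma in Cort-/- mice, with a median of 0.27 and no unadjusted p under 0.05. Ighm was at 5.63 to 13.7 RPKM and Igkc at 0.272 to 2.70 RPKM, and both overlapped between the hemispheres in each genotype. RNA says nothing here of IgG protein in the tissue. Ptx3, a pentraxin, had a difference of 1.86 (adjusted p = 0.125).

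**Figure D4:**
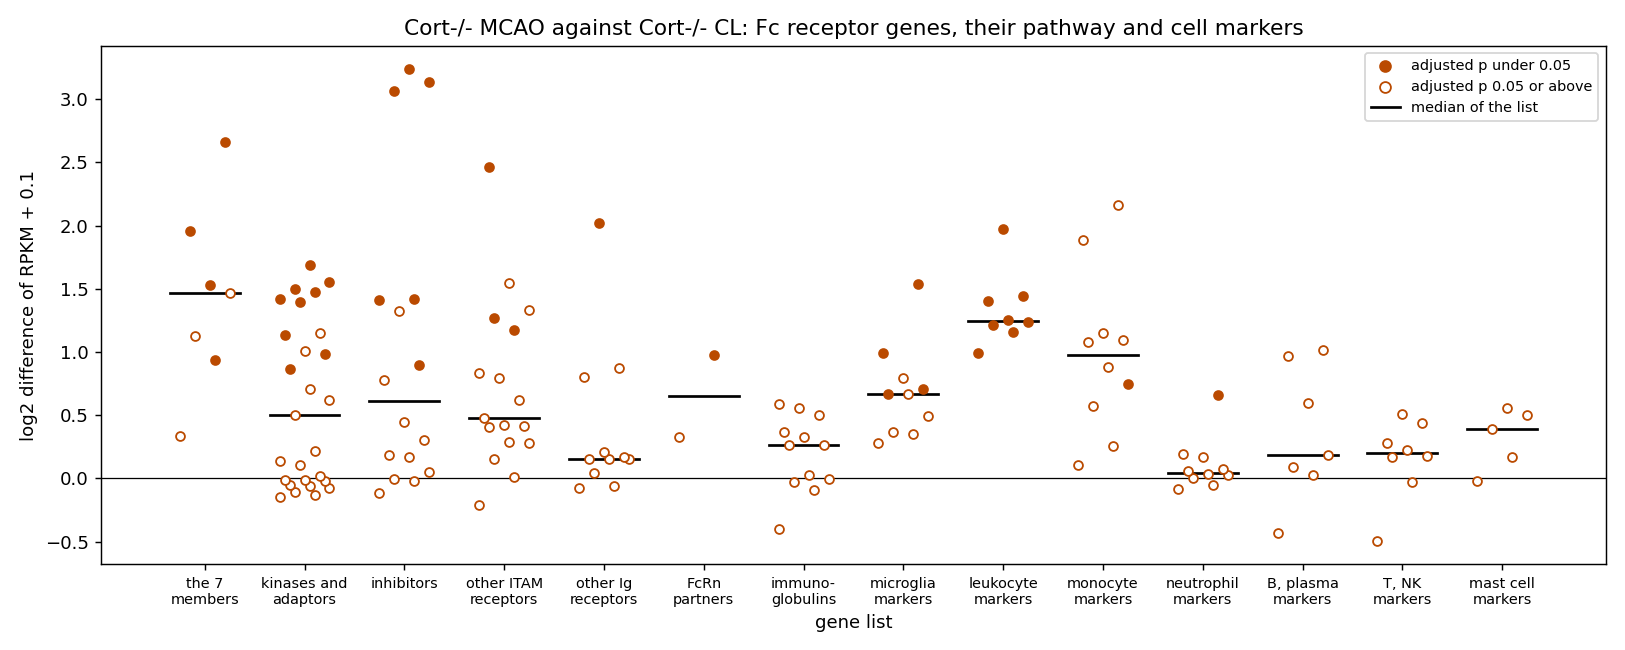
Log2 difference of RPKM + 0.1 of single genes between Cort-/- MCAO and CL hemispheres, for the 7 members, 6 pathway lists and 7 of the marker lists, with a line at the median of each list and filled points for an adjusted p under 0.05. The medians are 1.47 for the members, 1.25 for leukocyte, 0.98 for monocyte, 0.67 for microglia and 0.04 for neutrophil markers.

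Leukocyte markers and some microglia markers rose along with the members. The leukocyte list (Ptprc, Cd68, Aif1, Itgam, Spi1, Laptm5, Cd53 and Lcp1) rose in 8 of 8 genes in Cort-/- mice, with a median of 1.25 and summed levels of 33.0 to 40.2 RPKM in CL and 64.0 to 127 RPKM in MCAO libraries (31.4 to 39.6 and 52.2 to 103 RPKM in Cort+/+ mice). Cd68 had the largest difference, 1.97, beside 1.44 for Spi1, which encodes PU.1, and 1.40 for Lcp1. Of the microglia markers 4 of 10 rose, among them Olfml3 by 1.54, Cx3cr1 by 0.70 and Csf1r by 0.67, with a median of 0.67 and sums of 118 to 132 RPKM in CL and 172 to 253 RPKM in MCAO libraries of Cort-/- mice, and 118 to 123 and 152 to 231 RPKM in those of Cort+/+ mice. The part of these markers in the rise of the members was not tested.

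Markers of other cells, border macrophages among them, gave smaller medians or few calls in Cort-/- mice. Of the monocyte markers 1 of 10 rose (Fn1, by 0.75), with a median of 0.98 and sums of 16.8 to 21.2 RPKM in CL and 22.5 to 38.7 RPKM in MCAO libraries. Uncalled estimates were 2.17 for Chil3, 1.89 for Plac8, 1.15 for Arg1, 1.09 for Ccr2, 1.08 for Ms4a7 and 0.88 for Ly6c2. F13a1, Ace and Vcan had 0.57, 0.25 and 0.11. Hemispheres were apart for Fn1, Plac8 and Ms4a7, as for 4.85% of all genes in that direction. The sums rest mostly on Fn1 and Ace, at 8.40 and 6.12 RPKM in Cort-/- CL replicate 1, beside 0.0619 RPKM for Plac8. Border macrophage markers (0 of 6 called, median 0.41) summed to 2.25 to 3.67 and 3.14 to 7.76 RPKM. Of the neutrophil markers 1 of 10 rose (Csf3r, by 0.66), the median was 0.04, Ly6g was at 0 reads in 7 and Elane in 9 of the 14 libraries, and the sums of 6.60 to 12.1 and 7.44 to 19.2 RPKM overlapped.

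B and plasma cell markers (0 of 7, median 0.19), T and NK cell markers (0 of 8, median 0.20) and mast cell markers (0 of 5, median 0.39) were not called, and Cd3d, Ms4a1 and Cpa3 were at 0 reads in 9, 5 and 4 libraries. Endothelial markers rose in 2 of 7 genes (Kdr by 0.75 and Cdh5 by 0.55), with a median of 0.49 and sums of 44.5 to 54.1 and 58.7 to 77.4 RPKM. Kdr stood lower in Cort-/- CL (0.918 to 1.42 RPKM) than in Cort+/+ CL libraries (2.15 to 2.60 RPKM), but limma did not call it. Its log2 difference there was -0.93 (adjusted p = 0.324), and 2.35% of all genes were apart in that direction. The MCAO levels of Kdr were 1.48 to 2.45 RPKM in Cort-/- and 2.05 to 2.44 RPKM in Cort+/+ mice. The log2 difference of Kdr between hemispheres was -0.04 in Cort+/+ mice. Neuron markers (0 of 5, median -0.15) and choroid plexus markers (0 of 4, median 0.08) were not called. Neuron sums of 1325 to 1911 RPKM over the 14 libraries show the brain tissue that the labels name.

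Lastly, the members were compared with each other and with other genes over the 14 libraries, as a description without a test, since the libraries share their groups. Pearson's r of log2(RPKM + 0.1) lay between 0.94 and 0.98 for all pairs among Fcgr1, Fcgr2b, Fcgr3, Fcgr4 and Fcer1g, and between 0.87 and 0.97 after each value was centred on its group mean. Syk had a centred r of 0.46 to 0.73 with these 5 genes. Fcgrt had r of 0.50 to 0.66 with them, and -0.36 to -0.18 after centring. Single libraries of the MCAO groups went both ways, and no r was taken per group. Cort+/+ MCAO replicate 3 was highest of its group in summed IgG receptors (39.1 RPKM) and lowest in Fcgrt (7.16 RPKM). Cort-/- MCAO replicates 1 and 4 were highest of theirs in both, at 45.1 and 40.7 RPKM for the sum and 8.34 and 8.99 RPKM for Fcgrt.

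Among the 15056 genes compared, those whose mean reached 1 RPKM, the closest patterns were those of Lgals9, Parp9 and Lyn to Fcgr1 (r of 0.99 each), of Ncf1, Pros1 and Ifitm3 to Fcgr2b, of Fermt3, H2-D1 and Ifitm3 to Fcgr3, of Plek, Ifi30 and C1qb to Fcgr4, and of Bin2, Cd9 and Kif22 to Fcer1g, all with r from 0.985 to 0.993 and a centred r of at least 0.944. Adam8, Cyb5r1 and P2rx7 were closest to Syk, with r of 0.97 each and a centred r of 0.90 to 0.93. Fcgrt had no pattern as close. Its nearest genes were Tie1, which encodes an endothelial receptor (r of 0.91, centred 0.83), Vkorc1 and Mad2l1.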

How the data were processed

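The authors made stranded mRNA libraries, aligned the reads to GRCm39 with reanalyzerGSE 3.0.0 and GENCODE M28, and deposited a single table of RPKM for 46904 genes in 14 libraries. Whether counting used the strand, and how reads shared by several genes were counted, is not given in the sources used here.

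Groups follow the sample labels. RPKM were tested as log2(RPKM + 0.1) with limma 3.58.1 (R 4.3.3), in a model of 4 groups with a variance trend, over 46102 genes above 0 in at least 2 libraries, with Benjamini-Hochberg adjustment over all of them. RPKM steps were traced back to whole reads for 99.997% of values above 0 (within 0.01 reads), on which limma voom called 57 genes in Cort+/+ and 1295 in Cort-/- mice, against 5 and 792 with RPKM. Both steps were tested on simulated data. Intervals are 95% intervals of limma.

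The members, partner genes and lists were chosen with earlier results of these data known. Named genes are the 7 members, 11 fixed partners, and from each list up to 3 more genes of largest difference among those called in Cort-/- MCAO against CL hemispheres without overlap and with a mean of at least 0.5 RPKM. Other genes of the lists that the text names were chosen after their values were seen. Patterns were compared by Pearson's r. Alternatives were rescaling to TPM, quantile normalization, other pseudocounts and filters, voom, models of the compared groups only, replicate blocks and leaving out each library. Other tools were Python 3.11.15 with numpy 2.4.6, pandas 2.3.3 and matplotlib 3.10.9. Fcer1a, Fcrl5, Ighe, Crp and Apcs of the lists were not analysed here. Some called genes of the lists are counted but not reported here by name.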

Additional observations from a re-analysis of the deposited data

How the results depend on the processing

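Over 10 alternative settings (9 for the interaction, which uses all 4 groups) and 14 fits without 1 library each, the counts of 0 in Cort+/+ MCAO against CL, in both comparisons of the genotypes and in the interaction stayed at 0. The ratio of activating receptors to Fcgr2b moved by less than 1 SD with quantile normalization. TPM scaling cannot change a ratio within a library, and leaving out 1 library cannot move the mean of its group by 1 SD. Without single libraries the mean ratio ran from 11.2 to 13.4 in Cort+/+ CL and from 8.76 to 9.95 in Cort+/+ MCAO. It ran from 9.01 to 11.1 in Cort-/- CL and from 7.92 to 8.73 in Cort-/- MCAO hemispheres. The 4 members called in Cort-/- mice became 7 when genes under 0.5 RPKM in mean were left out, 0 with only the compared groups in the model and 0 with the replicate block (number as a factor), and ran from 0 to 5 without single libraries. The 7 called over both genotypes became 1 with the replicate block and ran from 4 to 7 without single libraries. The 20 pathway genes became 3 with only the compared groups and 0 with the replicate block, and ran from 3 to 27 without single libraries. Every estimate of the members between hemispheres stayed above 0. Over all genes, the 792 calls in Cort-/- mice became 1290 without genes under 0.5 RPKM, 1295 with voom, 86 with the compared groups only and 0 with the replicate block, and ran from 133 to 1191 without single libraries. The 5 calls in Cort+/+ mice became 28, 57, 25 and 1 in the same order, and ran from 3 to 160, the last without MCAO replicate 4. They became 22 with a pseudocount of 0.01, 13 after quantile normalization, 9 after TPM scaling and 2 with a pseudocount of 1. Over both genotypes, the 1579 calls became 238 with the replicate block and ran from 941 to 1913 without single libraries.

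Whether replicate numbers pair the samples could not be settled, as few pairs were at hand and the labels do not name the animals. Between CL and MCAO libraries of the same number and genotype, r centred on group means was -0.06, -0.24 and 0.03 in Cort-/- mice. It was 0.32 and -0.14 in Cort+/+ mice. A random block (correlation -0.02) changed no count of members or pathway genes, unlike the block with number as a factor above.

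Estimates that changed sign were all uncalled. In CL hemispheres, Cort-/- against Cort+/+, Fcgr3 reached 0.025 after rescaling to TPM and ran from -0.19 to 0.23 without single libraries, Fcgr2b from -0.032 to 0.59, Fcgr4 from -0.64 to 0.17 and Syk from -0.18 to 0.016. In MCAO hemispheres Fcgr1 ran from -0.058 to 0.82, Fcgr4 from -0.0083 to 1.11 and Fcgrt from -0.055 to 0.11. The interaction of Fcgr2b ran from -0.11 to 0.67. Depth limits Fcgr4 most, at 4 to 23 reads in CL libraries.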
